A study of Mus musculus with 13 samples.

Results

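Pitx1, Dlx3, Dlx5, Msx1, Msx2, Pax9, Barx1 and Barx2 are transcription factor genes that pattern the mouth, the jaws, the palate and the teeth. These 8 genes were chosen by name from that role, with earlier results of these data known. They were among 55332 genes with values in the count table, and all 8 were detected. Their mRNA was measured by bulk RNA sequencing in 13 mouse NUT carcinomas, squamous tumors driven by a fusion oncogene. All tumors arose in mice with 1 copy of the NCT allele (NCT+/-), from which Cre recombinase makes the fusion. Oral tumors came from a Cre driven by a keratin promoter of stratified epithelium, and pancreatic tumors from Pdx1-Cre, which acts in the embryonic pancreas, so that tissue and Cre driver cannot be told apart. The oral tumors comprised 4 Sox2 WT tumors (KRT14-Cre; NCT+/-) and 2 Sox2 KO tumors, whose labels add Sox2fl/fl and write the driver as KRT4Cre, while the study's methods name KRT14-Cre. The pancreatic tumors comprised 4 Sox2 WT tumors (Pdx1-Cre; NCT+/-) and 3 Sox2 KO tumors with both Sox2 alleles floxed. The floxed alleles are cut where Cre is active, whereas RNA from a whole tumor also holds cells without Cre, such as fibroblasts. The labels give no ages, and nothing in them says whether tumors of a group came from separate mice, so the p-values measure the spread between these tumors.

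Homeobox genes encode transcription factors that bind short AT-rich sites through a homeodomain and set the identity of regions of the embryo. In the face, Pitx genes mark the early oral and dental epithelium, Dlx genes are read along the jaw arches, and Msx, Pax9 and Barx1 act in the mesenchyme under the forming teeth, where they answer to BMP and FGF signals from the epithelium. Dlx3 and Barx2 also act in epithelium of the skin and its appendages. Pax9 is grouped with these genes by its role in teeth, palate and pharynx, since its protein binds DNA through a paired domain and lacks a homeodomain.

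Oral WT libraries totalled 29393925 to 40419965 estimated counts and oral KO libraries 11735031 and 20431977. The pancreas was sequenced more deeply, with totals of 40964171 to 46134532 (WT) and 89562488 to 120482588 (KO). Oral KO tumor 1, the shallowest, stood apart in that protein-coding genes took 59.5% of its counts against 84.5% to 91.7% elsewhere. Both oral KO tumors held skeletal muscle mRNA, with summed markers of 5560 CPM in tumor 1 and 3130 CPM in tumor 2. The oral WT tumors had 23.4 to 647 CPM. Sox2 itself had 410 to 680 counts in oral WT and 1111 to 1487 in pancreatic WT tumors, and at most 2 in any KO tumor. All 14 squamous epithelial markers were detected in every group. Pdx1, the pancreatic factor whose promoter drives the Cre, was at 0 counts in every oral tumor and at 113 to 1301 counts in the pancreatic ones. Of the 12 pancreatic acinar markers, Ptf1a and Amy2b were at 0 in all pancreatic WT tumors. The 12 summed to 5.25 to 15.2 CPM there and 4.45 to 291 CPM in pancreatic KO tumors, against 1.16 to 1.53 CPM in oral WT tumors. Fewer cells of a type and less RNA per cell cannot be told apart in such samples, and this holds for every level below.

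Levels are given as CPM, the count of a gene per 1000000 counts of the library, scaled with TMM factors over all 13 tumors. In oral WT tumors, 5 of the 8 genes were higher than in pancreatic WT tumors, Dlx3, Dlx5, Msx1, Msx2 and Barx1, by 12.1-fold to 132-fold, and Barx2 was lower by 2.96-fold. Pitx1 and Pax9 had overlapping levels. A gene was called where the edgeR quasi-likelihood test gave a Benjamini-Hochberg adjusted p under 0.05 over all genes tested and the absolute log2 fold change was above 1. With 6 of 8 genes called, the background was 16.5% of 23164 genes called in either direction, 9.30% higher in oral and 7.24% lower. The 6 called genes were also those whose oral and pancreatic WT tumors did not overlap. This rests on the same values as the calls, and the share of all genes without overlap was not counted. The median log2 fold change of the 8 genes was 4.50, against 0.005 over all genes tested.

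**Figure D1:**
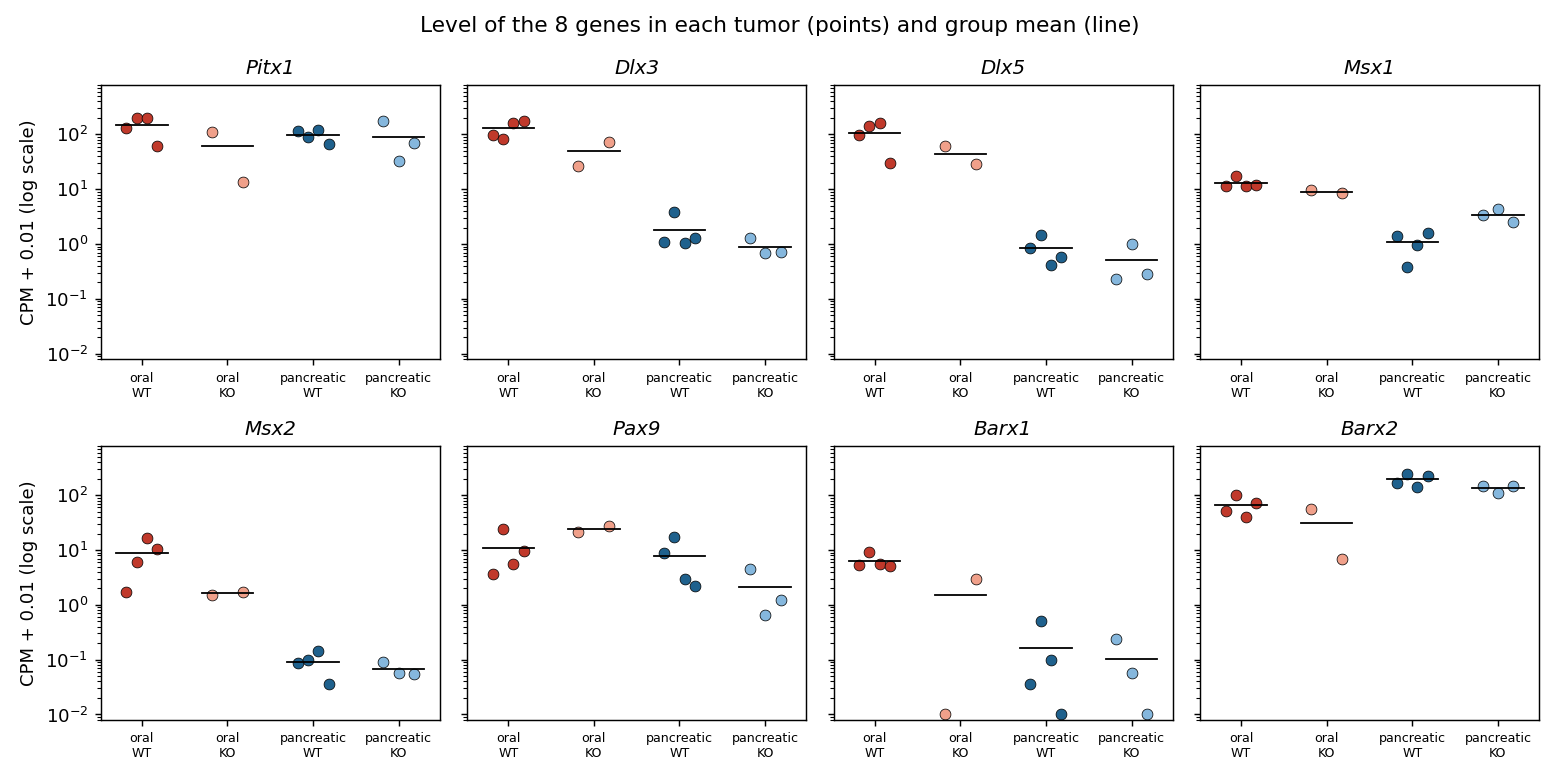
CPM of the 8 genes, with 0.01 added so that 0 can be drawn on the log axis, in each of the 13 tumors (points) with the mean of each group (line). Dlx3, Dlx5, Msx1 and Msx2 are higher in all 6 oral than in all 7 pancreatic tumors, Barx2 is higher in all pancreatic tumors, and Pitx1 and Pax9 overlap between the tissues.

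Dlx3 acts in tooth, hair and late epidermal differentiation. Its gene lies at chr11:95120119-95125296 on the plus strand of GRCm38. The oral WT tumors had 98.6, 84.1, 164 and 176 CPM, and the pancreatic WT tumors 1.10, 3.91, 1.04 and 1.29 CPM. Every oral tumor was thus far above every pancreatic one, and pancreatic tumor 2 was the highest of its group. Oral exceeded pancreatic by a log2 fold change of 6.18 ± 0.55 (SE; edgeR adjusted p = 0.000551).

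Dlx5, at chr6:6877805-6882085 on the minus strand, sets lower jaw identity together with its neighbour Dlx6 and promotes bone formation. It had 98.2, 140.3, 159 and 30.5 CPM in the oral WT tumors. In the pancreatic WT tumors it had 0.839, 1.48, 0.406 and 0.581 CPM. Oral tumor 4 was the lowest of its group, and the groups did not overlap. This was the largest log2 fold change among the 8 genes, at 7.05 ± 0.66 (SE; edgeR adjusted p = 0.000658).

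Msx1 and Msx2 encode related repressors that are induced by BMP signals in tooth, palate and skull, and lie at chr5:37820485-37824583 and chr13:53466884-53473074, both on the minus strand. Msx1 had 11.4, 17.6, 11.6 and 11.9 CPM in oral WT tumors. It had 1.39, 0.376, 0.947 and 1.62 CPM in pancreatic WT tumors, so that the groups were apart. The log2 fold change of Msx1 was 3.60 ± 0.43 (SE; edgeR adjusted p = 0.0011). Msx2 was more variable, with 1.72, 6.10, 16.8 and 10.3 CPM in the oral WT tumors, and it was close to the detection limit in pancreatic WT tumors, at 3, 3, 6 and 1 counts. Its log2 fold change was 6.68 ± 0.83 (SE; edgeR adjusted p = 0.00133). From the summed counts alone the ratio for Msx2 was 120, with an exact Poisson 95% interval of 70.1 to 225 that covers counting error of the pancreatic counts only.

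Barx1 (chr13:48662998-48666507, plus strand) and Barx2 (chr9:31846044-31913462, minus strand) are sister genes that went in opposite directions. Barx1, which marks molar mesenchyme and the stomach wall, had 5.30, 9.16, 5.50 and 5.15 CPM in oral WT tumors against 1, 17, 4 and 0 counts in pancreatic WT tumors. Oral tumor 2 was the highest, and no pancreatic tumor reached the lowest oral one. The log2 fold change of Barx1 was 5.40 ± 0.94 (SE; edgeR adjusted p = 0.00503), and 7.17 without pancreatic WT tumor 2, which held 17 of the 22 pancreatic counts (4.995 to 7.17 over single omissions). Barx2, which acts in surface and glandular epithelium and in muscle, had 51.8, 98.9, 39.5 and 70.9 CPM in oral WT tumors. It had 167, 246, 144 and 223 CPM in pancreatic WT tumors, all above the oral ones. Its log2 fold change was -1.56 ± 0.29 (SE; edgeR adjusted p = 0.00583). Squamous epithelial markers were lower in oral WT tumors as well, with 8 of 14 called lower and 1 higher, and a summed level of 6990 to 14000 CPM against 17800 to 28900 CPM. Their part in the Barx2 difference was not tested.

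Pitx1 (chr13:55825051-55836192, minus strand) and Pax9 (chr12:56691767-56712822, plus strand) were read in both tissues at overlapping levels. Pitx1, a marker of oral ectoderm and of the hindlimb, had 132, 201, 197 and 62.4 CPM in oral WT and 116, 89.6, 118 and 65.6 CPM in pancreatic WT tumors. For Pitx1 the log2 fold change was 0.61 ± 0.36 (SE; edgeR adjusted p = 0.262), a difference within the spread of the tumors. Pax9, needed for teeth, palate and pharyngeal pouches, varied more within each tissue than between them. Its levels ran from 3.70 to 24.1 CPM in oral WT and from 2.17 to 17.3 CPM in pancreatic WT tumors. The log2 fold change was 0.48 ± 0.76 (SE; edgeR adjusted p = 0.698), and it turned to -0.30 without oral WT tumor 2.

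**Figure D2:**
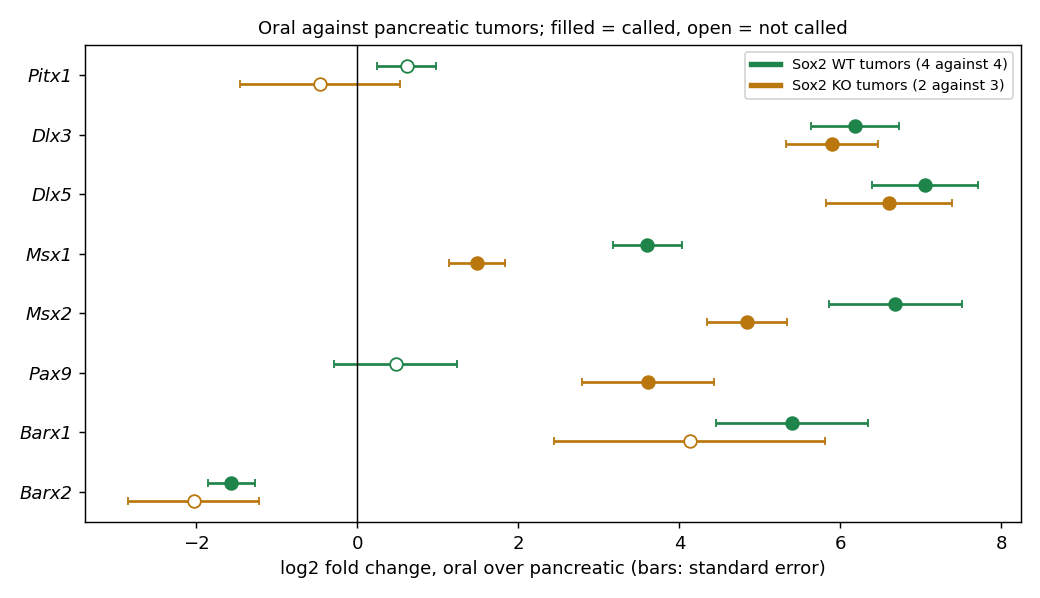
The log2 fold change of each gene between oral and pancreatic tumors with its standard error from edgeR, in Sox2 WT tumors (green) and in Sox2 KO tumors (ochre), filled where the gene was called. Dlx3, Dlx5, Msx1 and Msx2 are filled and to the right of 0 in both sets of tumors, and Barx2 is to the left of 0 in both.

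Promoter sequences of Msx1 and Barx1 are shown because both genes were higher in oral WT tumors and because their windows upstream of the annotated gene could be read without transcribed bases. RefSeq promoters (GRCm38.p6) were matched for 4 of the 8 genes, Msx1, Msx2, Pax9 and Barx1. The window of Msx1 is chr5:37824586-37824835 on the minus strand and that of Barx1 is chr13:48662786-48662997 on the plus strand, and both are printed 5′ to 3′ with CpG dinucleotides in capitals.
Msx1: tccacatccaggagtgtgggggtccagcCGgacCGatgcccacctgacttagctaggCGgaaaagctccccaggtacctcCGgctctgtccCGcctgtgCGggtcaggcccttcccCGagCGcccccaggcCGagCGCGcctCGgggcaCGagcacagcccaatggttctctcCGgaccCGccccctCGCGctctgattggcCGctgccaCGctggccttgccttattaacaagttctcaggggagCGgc
Barx1: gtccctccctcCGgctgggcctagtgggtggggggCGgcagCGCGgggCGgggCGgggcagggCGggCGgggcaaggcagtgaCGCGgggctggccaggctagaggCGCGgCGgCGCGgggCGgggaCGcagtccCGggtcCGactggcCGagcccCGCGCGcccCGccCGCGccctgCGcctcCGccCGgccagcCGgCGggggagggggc
The Msx1 window of 250 bases holds 20 CpG dinucleotides, and 17.7% of 27025 promoters hold at least as many in a window of that length. The Barx1 window of 212 bases holds 31, which 2.3% of promoters reach. GC bases make up 68.0% and 85.4% of the windows. The SOX core CATTGT, the homeodomain cores TAATTA and TAATTG and the Pitx core TAATCC were searched on both strands, where TAATTA reads the same on either strand and none of the letters overlapped another motif, and 0 matches were found in either window. These cores were present in 11%, 4.9%, 7.3% and 6.4% of all promoter windows of the length of the Msx1 window, and in 9.8%, 4.5%, 6.6% and 5.6% of those of the length of the Barx1 window.

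Sox2 KO tumors gave a second tissue comparison in tumors that the first did not use. In it, 5 of 8 genes were called, all higher in oral tumors, against a background of 25.2% of 24787 genes, 14.6% higher and 10.7% lower in oral. Dlx3, Dlx5, Msx1 and Msx2 were called higher in oral tumors in both comparisons. Dlx3 had 26.2 and 73.9 CPM in the oral KO tumors and 1.28, 0.680 and 0.695 CPM in the pancreatic KO tumors, a log2 fold change of 5.90 ± 0.57 (SE; edgeR adjusted p = 0.00539). Dlx5 had 60.4 and 29.3 CPM against 0.222, 0.980 and 0.280 CPM, a log2 fold change of 6.60 ± 0.79 (SE; edgeR adjusted p = 0.00733). Both genes therefore kept the oral tumors above all pancreatic tumors whatever the Sox2 genotype. Msx2 had 1.49 and 1.71 CPM against 9, 4 and 5 counts in the deep pancreatic KO libraries, a log2 fold change of 4.84 ± 0.50 (SE; edgeR adjusted p = 0.00592).

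Msx1 was nearer between the tissues in KO tumors, at 9.50 and 8.62 CPM in oral and 3.44, 4.32 and 2.50 CPM in pancreatic tumors. The groups were still apart, with a log2 fold change of 1.49 ± 0.35 (SE; edgeR adjusted p = 0.0244). Pax9, not called in WT tumors, had 21.3 and 27.5 CPM in oral KO and 4.49, 0.634 and 1.20 CPM in pancreatic KO tumors. The log2 difference was 3.61 ± 0.82 (SE; edgeR adjusted p = 0.0242). The calls of Msx1 and Pax9 were both lost without oral KO tumor 1, oral KO tumor 2 or pancreatic KO tumor 3, where adjusted p lay between 0.059 and 0.0808, and that of Msx1 was lost also without pancreatic KO tumor 1 (adjusted p = 0.0633). Barx1 was split in the oral KO tumors, with 0 counts in tumor 1 and 82 counts in tumor 2, and had 26, 4 and 0 counts in pancreatic KO tumors. It was not called (log2 fold change 4.13 ± 1.68, SE; edgeR adjusted p = 0.107), and the 0 in oral KO tumor 1 allows a level of up to 0.256 CPM at that depth. Barx2 had 55.8 and 6.91 CPM in oral KO and 149, 112 and 144 CPM in pancreatic KO tumors, not overlapping but not called (log2 fold change -2.04 ± 0.82, SE; edgeR adjusted p = 0.103). It was called in 4 of 14 alternatives (adjusted p 0.0189 to 0.254), and the log2 fold change was -4.16 without oral KO tumor 1 and -1.17 without oral KO tumor 2. Pitx1 had 111 and 13.8 CPM against 173, 32.7 and 68.4 CPM, with a log2 fold change of -0.46 ± 0.99 (SE; edgeR adjusted p = 0.736).

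Compared per kilobase of exon, the WT tumors of each tissue showed an upper and a lower level. In oral WT tumors Pitx1, Dlx3, Dlx5 and Barx2 had means of 55.8, 50.2, 47.3 and 33.2 CPM per kilobase, and neighbours in that order overlapped. They were followed, with no overlap, by Barx1, Msx1, Msx2 and Pax9 at 4.49, 4.24, 2.66 and 2.12 CPM per kilobase, whose neighbours overlapped as well. In pancreatic WT tumors Barx2 led at 98.9 CPM per kilobase and Pitx1 followed at 36.7, each apart from the next. Pax9 had 1.54, Dlx3 0.703, Dlx5 0.365, Msx1 0.349, Barx1 0.109 and Msx2 0.0249 CPM per kilobase there, each overlapping its neighbour. The upper level of the pancreatic tumors thus held only Barx2 and Pitx1, in WT and in KO tumors, where Barx2 had 68.7 and Pitx1 34.4 CPM per kilobase and Msx1 came next at 1.10. Oral KO tumors showed no such gap, since Pitx1 had 41.95 and 5.21 CPM per kilobase, Barx2 had 28.3 and 3.51, and Barx2 overlapped Pax9 at 4.22 and 5.44.

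The other genes of the same families separated along linked pairs. Dlx4 lies 15150 bases from Dlx3 on chromosome 11, Dlx6 lies 9236 bases from Dlx5 on chromosome 6, and the genes of each pair are transcribed toward each other. Both partners were called higher in oral WT tumors with their neighbours. Dlx4 averaged 21.1 CPM (SD 7.23, n = 4) against 0.190 CPM (SD 0.0903, n = 4), a log2 fold change of 6.80 ± 0.46 (SE; edgeR adjusted p = 0.000219). Dlx6 averaged 22.4 CPM (SD 16.5, n = 4) against 0.523 CPM (SD 0.209, n = 4), a log2 fold change of 5.43 ± 0.63 (SE; edgeR adjusted p = 0.00111). The remaining linked pair, Dlx1 and Dlx2 on chromosome 2, was read in both tissues. Dlx1 averaged 7.94 and 2.93 CPM in oral and pancreatic WT tumors and Dlx2 8.63 and 11.3 CPM, and neither was called (edgeR adjusted p = 0.163 and 0.607). In KO tumors Dlx4 and Dlx6 were again called higher in oral tumors (log2 fold change 6.36 and 3.75; edgeR adjusted p = 0.00688 and 0.00733), while Dlx2 was called lower, at 2.39 against 22.98 CPM (log2 fold change -3.25 ± 0.73, SE; edgeR adjusted p = 0.0234).

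**Figure D3:**
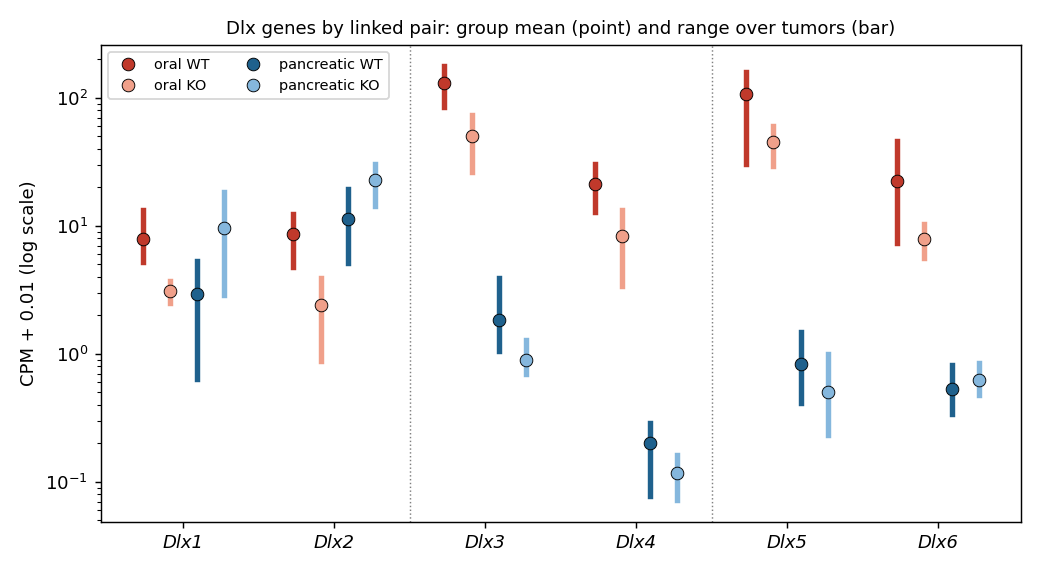
Mean CPM (points) and range over tumors (bars) of the 6 Dlx genes in the 4 groups, with 0.01 added on a log axis and dotted lines between the linked pairs. Dlx3, Dlx4, Dlx5 and Dlx6 are higher in the oral groups with no overlap with the pancreatic groups, and Dlx1 and Dlx2 are present in all 4 groups, with overlapping WT ranges.

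Of the 15 other genes of the Pitx, Dlx, Msx, Pax and Barx families 12 were tested in WT tumors, and 3 were called, Dlx4 and Dlx6 among them, all higher in oral tumors. In KO tumors 10 were tested, with 5 called higher and 1 lower. The shares over all genes, in either direction, were 16.5% in WT and 25.2% in KO tumors.

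Factors and signals that work with these genes in the face were more often higher than lower in oral WT tumors. Over all genes tested there 9.30% were called higher and 7.24% lower. Of 40 other transcription factors of face, jaw, tooth and palate, 35 were tested, 21 were called higher and 2 lower, with a median log2 fold change of 1.71. Those with the smallest adjusted p included Tbx1, a pharyngeal and dental factor (5.61 ± 0.35, SE), and Prrx1, a mesenchymal factor (2.83 ± 0.20, SE), at edgeR adjusted p = 0.000178 and 0.000267. Of 35 signals and receptors, 33 were tested, 12 were called higher and 1 lower, with a median of 1.46. They were led by Tgfb3, a palate fusion ligand (1.98 ± 0.21, SE), Wnt6, an epithelial ligand (3.47 ± 0.40, SE), and Fgfr1, an FGF receptor (3.14 ± 0.36, SE), at edgeR adjusted p = 0.000747, 0.00103 and 0.00108. In KO tumors 12 of 33 tested factors were called higher and 3 lower, and 5 of 30 tested signals were called higher and 4 lower. Over all genes in that comparison 14.6% were called higher and 10.7% lower, so the signals were near the background there.

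Markers of several other cell types moved with tissue too. Over all genes tested between WT tissues 16.5% were called, 9.30% higher and 7.24% lower in oral. Of 12 fibroblast markers 10 were called higher in oral WT tumors, with a median log2 fold change of 2.62 and summed levels of 9720 to 20300 CPM against 1240 to 2510 CPM. Of 10 osteoblast markers 9 were called higher, with a median of 3.41 and 153 to 497 CPM against 11 to 13 CPM. They included Sp7, the osteoblast factor (8.72 ± 0.72, SE), and Alpl, alkaline phosphatase of mineralising cells (4.89 ± 0.40, SE), at edgeR adjusted p = 0.000434 and 0.000506, and Mepe was at 0 in all pancreatic tumors. Of 8 tooth markers 5 were tested, with 3 higher and 1 lower in oral, and the enamel genes Amelx, Ambn and Enam were at 0 in all pancreatic tumors. Hair follicle markers had 4 of 9 called higher, skeletal muscle markers 5 of 14, nervous tissue markers 2 higher and 1 lower of 7, and chondrocyte markers 0 of 10. Muscle progenitor markers had 1 of 5 called higher and smooth muscle markers 1 higher and 2 lower of 8. Salivary gland markers had 1 higher and 1 lower of 4, and pancreatic acinar markers 1 lower of 8. The counts for chondrocyte, muscle progenitor and pancreatic acinar markers were near or below the share over all genes. Pancreatic and foregut factors had 9 of 12 called lower and 0 higher. Msx1, Msx2, Barx1 and Dlx5 are themselves read in mesenchyme or bone, and their differences had the same direction as those of fibroblast and osteoblast markers. Pax9, which also acts in mesenchyme, was not called between WT tissues (log2 fold change 0.48, edgeR adjusted p = 0.698). Of the genes that also act in epithelium of the skin, Dlx3 was higher in oral WT tumors (6.18) and Barx2 lower (-1.56). Squamous epithelial markers were mostly lower there, with 8 of 14 called lower and 1 higher. In the KO tissue comparison 14 of 15 skeletal muscle markers (median 6.67) were called higher in oral tumors. So were 5 of 12 fibroblast markers and 8 of 9 osteoblast markers, and 1 fibroblast marker was called lower. Over all genes in that comparison 14.6% were called higher and 10.7% lower in oral. The part of these cell types in the differences of the 8 genes was not tested.

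**Figure D4:**
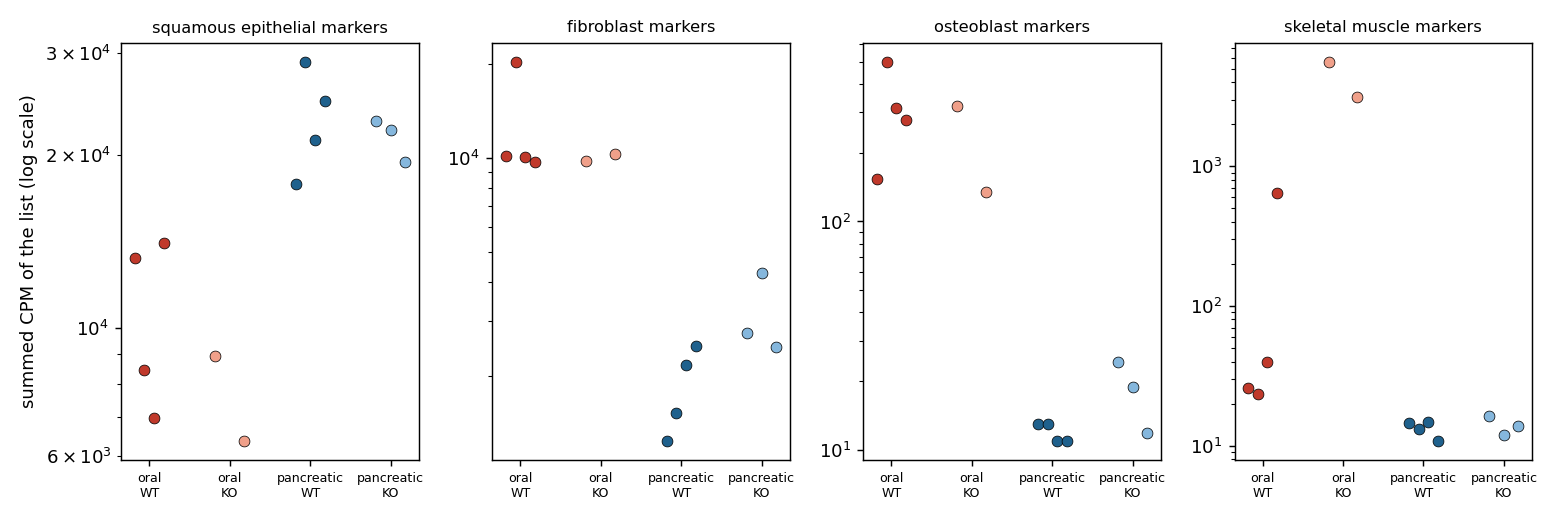
Summed CPM of the markers of 4 cell types in each tumor on log axes. Fibroblast and osteoblast sums are higher in all oral than in all pancreatic tumors, and squamous sums are lower. The skeletal muscle sum is 5560 CPM in oral KO tumor 1 and 3130 CPM in oral KO tumor 2.

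Loss of Sox2 in oral tumors was compared next, to ask whether the genes changed without this factor. In oral tumors, 0 of 8 genes were called between KO and WT by edgeR, against a background of 11.7% of 22342 genes, 8.81% higher and 2.89% lower in KO. At an unadjusted edgeR p under 0.05 there were 2, Dlx3 and Msx2, but many of all genes passed that cutoff. By p these 2 ranked only 7688 and 7173 among the 22342 genes. DESeq2 called 1, Msx2, and its share over all genes is not given here. The 8 genes had negative log2 fold changes in 7 cases, with a median of -1.07 against -0.003 over all genes. Over all genes 11191 of 22342 were negative. Both Msx2 values in KO tumors, 1.49 and 1.71 CPM, were below the lowest WT value of 1.72 CPM on the TMM scale, but the groups overlapped without TMM factors (KO 1.36 and 2.30, lowest WT 1.93) and on the protein-coding total (KO 2.29 and 2.72, lowest WT 2.14). Its log2 fold change was -2.28 ± 0.90 (SE; edgeR adjusted p = 0.123, and 0.0161 to 0.419 over the alternatives). Dlx3 was at 26.2 and 73.9 CPM in KO tumors against 84.1 CPM in the lowest WT tumor (log2 fold change -1.22 ± 0.51, SE; edgeR adjusted p = 0.136). This separation was also lost under the other scalings, where KO tumor 2 had 99.4 against 92.5 CPM in the lowest WT tumor without TMM factors and 118 against 103 CPM on the protein-coding total.

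The 2 oral KO tumors lay far apart for Pitx1, Barx2 and Barx1 and close together for Msx1 and Pax9. Pitx1 was at 111 and 13.8 CPM and Barx2 at 55.8 and 6.91 CPM, in both cases with tumor 1 inside the WT range and tumor 2 below it. Their log2 fold changes were -1.05 ± 0.86 and -0.86 ± 0.79 (SE), with edgeR adjusted p of 0.413 and 0.465. Barx1 was lower in both KO tumors, at 0 and 2.98 CPM against 5.15 CPM in the lowest WT tumor, with a log2 fold change of -1.83 ± 1.12 (SE; edgeR adjusted p = 0.282). It was called without oral KO tumor 2 (adjusted p = 0.0413), when only the tumor with 0 counts and the lowest depth was left. Msx1 was at 9.50 and 8.62 CPM, against a lowest WT value of 11.4 CPM (log2 fold change -0.35 ± 0.28, SE; edgeR adjusted p = 0.398). On the protein-coding total both KO tumors, at 14.6 and 13.7 CPM, were inside the WT range, whose lowest value was 13.69 CPM. Dlx5 overlapped, at 60.4 and 29.3 CPM (-1.08 ± 0.68, SE; edgeR adjusted p = 0.293). Pax9 alone had a positive value, 1.38 ± 0.68 (SE; edgeR adjusted p = 0.196), its KO tumors lying in the upper part of the WT range and above it.

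Over all genes tested between oral KO and WT tumors 11.7% were called, 8.81% higher and 2.89% lower in KO. No gene of the same families (10 tested) and none of 36 other face factors was called. Of 33 signals and receptors 2 were called, both lower, a count not above the 11.7%. These were Edaradd, the adaptor of the ectodysplasin receptor in teeth and hair (log2 fold change -1.05 ± 0.23, SE; edgeR adjusted p = 0.0318), and Fst, a secreted inhibitor of activin (-1.76 ± 0.44, SE; edgeR adjusted p = 0.042). Among the cell type markers, Dcn and Lum of fibroblasts were called lower (-3.40 and -2.09, edgeR adjusted p = 0.0196 and 0.0347). The fibroblast list did not move as a whole, with 6 of 12 log2 fold changes positive, 6 negative and a median of 0.007. Its sums were 9800 to 10300 CPM in oral KO and 9720 to 20300 CPM in oral WT tumors. Krt15 of basal keratinocytes was called lower (-3.11, edgeR adjusted p = 0.0398), while 6 of 14 squamous markers had positive and 8 negative values. Myh4, Ryr1 and Chrna1 of muscle were called higher (7.40, 3.23 and 2.52; edgeR adjusted p = 0.0253, 0.0283 and 0.0301), and all 15 skeletal muscle markers had positive values. Muscle mRNA and the low protein-coding share of oral KO tumor 1 move with this contrast, and their part in the values of the 8 genes was not tested.

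In pancreatic tumors, 0 of the 7 genes tested were called between KO and WT by edgeR, against a background of 0.629% of 24653 genes, 0.337% higher and 0.292% lower in KO. At an unadjusted edgeR p under 0.05 there were 2, Msx1 and Barx2, which ranked 1238 and 2708 by p among the 24653 genes. DESeq2 called 1, Msx1, and its share over all genes is not given here. Msx2, with 1 to 9 counts in each tumor, was too low to be tested. Of the 7 genes tested 6 had negative log2 fold changes, with a median of -0.65 against 0.022 over all genes. Over all genes 11696 of 24653 were negative. How many of all genes had KO tumors apart from all WT tumors was not counted. Among the 8 genes only Msx1 did, at 3.44, 4.32 and 2.50 CPM against at most 1.62 CPM. Its log2 fold change was 1.64 ± 0.46 (SE; edgeR adjusted p = 0.143), and its adjusted p lay between 0.0104, from DESeq2, and 0.32 over the alternatives. Barx2 was slightly lower, at 149, 112 and 144 CPM against 144 CPM in the lowest WT tumor, with overlap of the groups (log2 fold change -0.54 ± 0.20, SE; edgeR adjusted p = 0.242).

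Pax9 had a negative value of -1.89 ± 0.94 (SE; edgeR adjusted p = 0.385), with 4.49, 0.634 and 1.20 CPM in KO tumors inside and below the WT range. Dlx3, Dlx5 and Barx1 had log2 fold changes of -1.05 ± 0.55, -0.76 ± 0.64 and -0.65 ± 1.41 (SE; edgeR adjusted p = 0.396, 0.615 and 0.867). Pitx1 ranged from 32.7 to 173 CPM in KO tumors, on both sides of the WT tumors (-0.11 ± 0.52, SE; edgeR adjusted p = 0.942). None of the other genes of the families (9 tested), of the face factors (31) or of the signals (30) was called. Fibroblast markers were at 2480 to 4280 CPM in KO and 1240 to 2510 CPM in WT tumors, with 12 of 12 log2 fold changes positive, a median of 0.81 and 0 called. Chondrocyte markers were at 167 to 891 CPM against 18.4 to 192 CPM, with 0 of 9 called. Pancreatic acinar markers had positive values for 9 of 10, with a median of 4.39 and 0 called, and KO tumor 3 stood apart at 291 CPM against 4.45 to 15.2 CPM in the other pancreatic tumors. The 1 osteoblast marker called was Bglap, osteocalcin (-4.20 ± 0.59, SE; edgeR adjusted p = 0.0273). The part of these cell types in the Msx1 values was not tested.

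**Figure D5:**
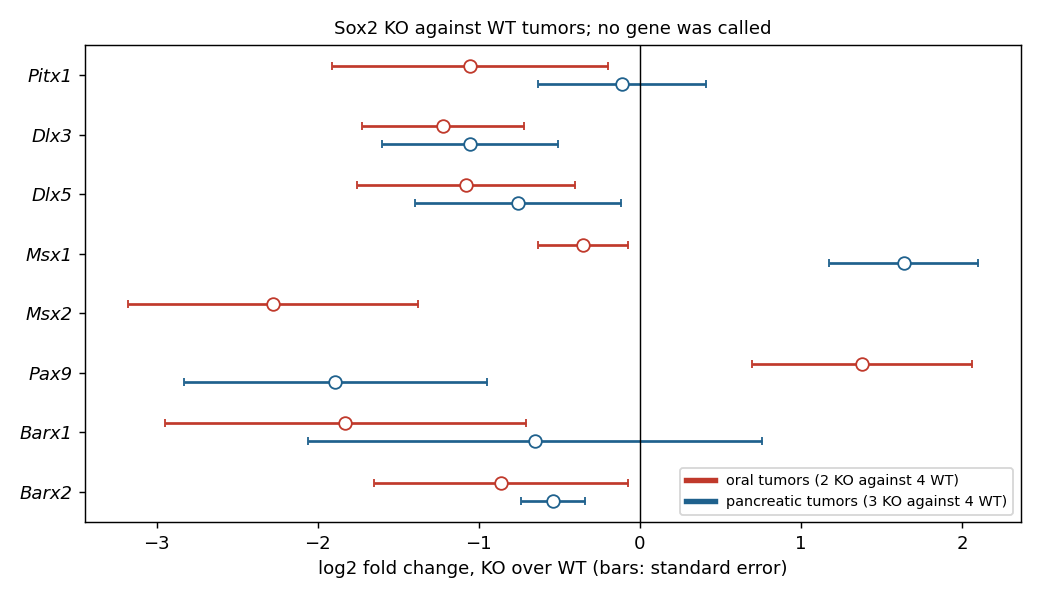
The log2 fold change of each gene between Sox2 KO and WT tumors with its standard error from edgeR, in oral tumors (red) and in pancreatic tumors (blue), all open because none was called. Msx2 was not tested in pancreatic tumors, and Msx1 and Pax9 have opposite signs in the 2 tissues.

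Whether the KO change itself differed between tissues was tested with an interaction term over all 13 tumors. Of the 8 genes 1 was called, Msx1, against a background of 12.3% of 25836 genes, 7.41% larger and 4.85% smaller in oral. A count of 1 in 8 is at the level of that background. The difference for Msx1, oral minus pancreatic, was -2.06 ± 0.60 (SE; edgeR adjusted p = 0.0395). The call was lost in 9 of 20 alternatives, and adjusted p ranged from 0.00269 to 0.115. It was lost when oral WT tumor 2 or 3, either oral KO tumor, pancreatic WT tumor 3 or any of the 3 pancreatic KO tumors was left out. Pax9 had the largest difference in the other direction, 3.19 ± 1.28 (SE; edgeR adjusted p = 0.105). For the remaining genes the difference was between -1.81 and -0.23, at edgeR adjusted p of 0.251 to 0.865.

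The 8 genes did not vary as a block among tumors of one tissue. Over the 28 pairs of genes, Pearson correlations of log2 CPM, over 6 oral and 7 pancreatic tumors, were above 0.5 in both tissues for 2 pairs and had opposite signs in the tissues for 15. Because tumors share depth, genotype and cell makeup, these correlations are descriptions, and no share over other pairs of genes was taken. Among 15861 protein-coding genes, those most like Msx1 in both tissues were Fbln5, an elastic fibre protein (r = 0.946 oral, 0.955 pancreatic), Lpar1, a lysophosphatidic acid receptor (0.991, 0.941), and Ggnbp1 (0.934, 0.925). Barx2 was most like Plpp2 (0.922, 0.927), Rita1 (0.937, 0.92) and Skiv2l (0.973, 0.912). Barx1 was most like Bcap31 (0.84, 0.849), Trp63, the p63 gene of basal squamous cells (0.924, 0.823), and Atp6v1c1 (0.818, 0.842). Its correlations rest on few counts, since Barx1 had 0 to 17 counts in pancreatic WT and 0 to 26 in pancreatic KO tumors. It also had 0 counts in oral KO tumor 1.

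Pitx1 was most like Ddx56 (r = 0.933 oral, 0.989 pancreatic), Krt76, a keratin of oral epithelium (0.963, 0.927), and Sec11c (0.921, 0.921). Dlx3 was most like Psat1, a serine synthesis enzyme (0.975, 0.918), Mief1 (0.898, 0.926) and Emc4 (0.919, 0.897). Dlx5 was most like Cd47 (0.904, 0.913), Ube2b (0.891, 0.954) and Rps7, a ribosomal protein (0.876, 0.867). Pax9 was most like Vmn1r44 (0.904, 0.858), Fetub (0.821, 0.955) and Vsig8, a protein of hair and nail (0.833, 0.82). For Msx2, read over the 6 oral tumors alone, they were Col23a1 (0.994), Gm49333 (0.993) and Igf2bp1 (0.985). The highest of so many correlations over so few tumors is large by its choice, and the lists differed from gene to gene.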

How the data were processed

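RNA from 13 tumors in 4 groups, set by the sample labels, was sequenced in bulk. Reads were trimmed by the authors with Trim Galore 0.6.10, checked with FastQC 0.12.1, quantified with Kallisto 0.50.0 in strand-specific mode on GENCODE mouse transcripts (GRCm38) and summed per gene with tximport. The authors deposited the estimated counts, not scaled for library size, with 1 column per tumor. Of the deposited values 27.3% are not whole, and all were rounded. The 8 genes and all gene lists were chosen with earlier results of these data known.

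Symbols and positions came from GENCODE M21 (GRCm38). Up to 3.05% of the 31-base sequences of a member occur in other genes. Antisense genes overlap Pitx1, Pax9 and Barx2, and a lincRNA on the same strand shares 736 bases with Pitx1.

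A gene needed 10 or more counts in 2 or more tumors of a comparison and was then tested in R 4.3.3 with edgeR 4.0.16 (TMM, robust quasi-likelihood fit), each comparison in its own tumors and the interaction over all 13. DESeq2 1.42.0 with apeglm 1.24.0, other filters, other scalings, thinned counts, a block by tumor number and leaving out each tumor were tried. The procedure was also run on simulated counts. Changes were planted there only in genes above a minimum expected count, with group means otherwise equal. That run therefore does not cover genes with few counts or shifts in composition. For correlations, log2 CPM had a prior count of 2. Depth is the total count per tumor, and intervals and floors of 3 counts cover counting error only. From each list, genes called in a KO comparison and the 3 smallest adjusted p in oral against pancreatic WT tumors could be named, and for each member the 3 genes with the highest lower correlation of both tissues. Dlx1 and Dlx2, and the markers named for being at 0, were named after their values were seen. Some genes that this rule would name are not reported here.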

Additional observations from a re-analysis of the deposited data

Results flagged for a closer look

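Tumors that stood apart from the rest of their group were looked for with Dixon's gap test in the 4 oral WT and the 4 pancreatic WT tumors for each of the 8 genes, 16 groups in all, of which chance marks about 1 in 20. Among these, 3 were marked. Dlx3 in pancreatic WT tumor 2 was at 3.91 CPM, with the next tumor at 1.29 CPM, and the gap made up 0.913 of the range of the group. Msx1 in oral WT tumor 2 was at 17.6 CPM against 11.9 CPM for the next tumor (0.931 of the range). Barx1 in the same oral WT tumor 2 was at 9.16 CPM against 5.50 CPM (0.913 of the range). That tumor also had the highest summed fibroblast and osteoblast markers of its group, 20300 and 497 CPM, and their part was not tested. All 3 genes were called in oral against pancreatic WT tumors with and without these tumors.

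The change of Msx1 between Sox2 KO and WT tumors differed between the tissues by -2.06 on the log2 scale (interaction term, edgeR adjusted p = 0.0395, 0.00269 to 0.115 over 20 alternatives), with both oral KO tumors below all oral WT tumors on the TMM scale, but inside the WT range on the protein-coding total, and the 3 pancreatic KO tumors above all pancreatic WT tumors. With 1 of the 8 genes called, the count was at the background of 12.3% of all genes.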

How the results depend on the processing

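The 6 calls between oral and pancreatic WT tumors were made under every alternative run, except that Msx2 and Barx1 could not be tested, and 4 were called, when 10 counts were required in every tumor. Between KO tumors 5 genes were called, 2 with tumor number as a replicate block, 4 to 7 under the others, and 3 to 5 when a tumor was left out. Between oral KO and WT tumors 0 became 1 with DESeq2, with or without apeglm, and in 1 fit of all 13 tumors (Msx2, log2 fold change -2.33, -1.76 and -2.34), and 0 to 1 when a tumor was left out. In the pancreas 0 became 1 with DESeq2, with or without apeglm (Msx1, 1.64 and 1.35), and stayed 0 when a tumor was left out. For the difference between tissues 1 became 2 with DESeq2 (Msx1 and Pax9), 0 with protein-coding genes alone and 0 to 1 without a tumor. Without oral KO tumor 1 the call was Barx2 (-2.63) in place of Msx1. The causes were not tested.

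Over the single genes 597 alternatives kept direction and side of the threshold, 19 lost a call, 13 gained one and 11 changed sign, none of the latter in a called gene and all when 1 tumor was left out. Pax9 between WT tissues was -0.30 without oral WT tumor 2, in a range of -0.30 to 1.21 over single omissions. Pitx1 between KO tissues was 0.40 without oral KO tumor 2 and 0.47 without pancreatic KO tumor 1 (range -2.60 to 0.47), and in pancreatic KO against WT 0.30 and 0.07 without pancreatic KO tumor 2 or 3 (range -0.96 to 0.30). Differences between tissues turned to 0.28 and 0.16 for Dlx3 (without oral KO tumor 1, pancreatic KO tumor 1; lowest -1.17), 0.04 and 0.56 for Dlx5 (oral KO tumor 2, pancreatic KO tumor 2; lowest -1.05), 0.43 for Barx2 (oral KO tumor 2; lowest -2.63) and 0.79 for Barx1 (pancreatic KO tumor 1; lowest -10.73).

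Levels in oral KO tumors moved by more than their SD under other scalings for 4 genes. On the protein-coding total they were 69.8 CPM for Dlx5, 14.2 for Msx1, 2.51 for Msx2 and 38.3 for Pax9, and without TMM factors 10.2 for Msx1 and 1.83 for Msx2. Tumor numbers did not pair the samples, since correlations of same-numbered tumors were -0.10 to 0.34 and over 0.1 for 1 of 11 pairs. The block changed no other count of calls. Where 1 tumor remained in a group its spread was taken from the other groups. Comparisons with oral KO tumors rest on 2 tumors, of which 1 had 11735031 counts.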
